A study of Mus musculus with 16 samples.

Results

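The genes described here encode 39 enzymes that break down amino acids, chosen by name from the tryptophan, tyrosine, branched-chain, proline and lysine, transaminase, and glycine and serine pathways. All 39 were found among the 78317 genes listed in the deposited tables, and all 39 were among the 14781 genes that passed a filter on low counts. They were measured by sequencing polyadenylated RNA from homogenized liver in 16 samples of wild-type mice of the inbred strain C57BL/6J. The samples formed 4 groups of 4: females and males on normal chow (LabDiet 5053, with 4.5% of calories from fat), and females and males on a high fat diet (D12492, with 60% of calories from fat). The mice were 6 weeks old when they arrived and were fed for 10 weeks, and the labels name no engineered allele and no drug in any group. The comparisons ask how the high fat diet changed liver RNA in each sex. The diets came from different makers, so the fat content and the other ingredients cannot be told apart. The labels number the samples but do not say that each came from its own animal. The p-values therefore judge differences against the spread between these samples, which may be technical. They may not carry over to other mice.

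Amino acids that are not needed for protein give up their nitrogen and are burned or turned into glucose, and the liver carries out most of this work. Transaminases pass the amino group to a keto acid, after which pathway enzymes open the carbon skeleton step by step. Tryptophan dioxygenase opens tryptophan into the kynurenine pathway, tyrosine is broken down through homogentisate, and glycine is split in mitochondria by the glycine cleavage system. Branched-chain amino acids are transaminated mostly outside the liver, while the dehydrogenase complex that acts on their keto acids is abundant in liver.

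Library totals ranged from 22228115 to 41420589 expected counts. Values per library are CPM, counts scaled to library size and adjusted with TMM factors (edgeR's trimmed mean method), which allow a gene to be compared between libraries but not with another gene. The summed level of 6 hepatocyte markers was 119000 to 134000 CPM in normal diet females, 97900 to 117000 CPM in high fat diet females, 98200 to 114000 CPM in normal diet males and 76900 to 89800 CPM in high fat diet males, and none of the 6 was at 0 in all libraries of a group. Male high fat diet replicates 2 and 3 were the closest pair within a group, with a chi-square of 4.07 per gene against 20.8 for the next closest pair. They were kept as separate samples. Both lay above both other male high fat diet libraries in 33 of the 39 enzyme genes (84.6%), against 27.2% of all genes tested, and below them in 2 (5.13%), against 28.7%.

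On the TPM scale, which corrects for transcript length, transcripts of these enzymes were abundant. Their median of the mean over 16 libraries was 101 TPM, against 4.4 TPM for all genes tested, and 20 of the 39 exceeded 100 TPM, against 6.47% of all genes. Tyrosine enzymes held 4 of the 5 highest places: Hpd, hydroxyphenylpyruvate dioxygenase, averaged 1940 TPM, Gstz1, maleylacetoacetate isomerase, 872 TPM, Hgd, homogentisate dioxygenase, 426 TPM, and Fah, fumarylacetoacetate hydrolase, 408 TPM. Tdo2, tryptophan dioxygenase, averaged 880 TPM over all libraries, a mean that hides differences between the groups. At the low end were Ido2, an indoleamine dioxygenase that also acts on tryptophan, at 24.2 TPM, Amt, the aminomethyltransferase of glycine cleavage, at 22.7 TPM, and Bcat2, the mitochondrial branched-chain transaminase, at 8.004 TPM. The order of Tdo2 and Gstz1 differed between groups. In normal diet males Tdo2 was higher, at 1064 to 1590 TPM against 642 to 733 TPM for Gstz1, and in high fat diet females it was lower, at 531 to 829 TPM against 901 to 1139 TPM, both without overlap. Their libraries overlapped in normal diet females, with means of 909 TPM for Tdo2 and 955 TPM for Gstz1, and in high fat diet males, with means of 698 and 824 TPM. Hgd and Fah overlapped within each of the 4 groups.

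On the high fat diet few of the enzyme genes passed the test for a difference, and Tdo2 was the 1 gene that passed as lower in both sexes. The transaminase gene Got1 differed more, by -0.95 in females and -0.97 in males on the log2 scale. It did not pass in either sex (edgeR adjusted p = 0.0577 and 0.053). In females 5 of 39 genes (12.8%) passed an adjusted p of 0.05 in edgeR's quasi-likelihood test, where 11.5% of all genes tested did. Amt and Bcat2 rose, where 5.74% of all genes were higher, and Tdo2, Bckdhb and Hibch fell, where 5.76% were lower. The median difference of the 39 genes was -0.11 on the log2 scale, against 0.00 for all genes tested. In males 2 of 39 genes (5.13%) passed, where 11.4% of all genes did: Ido2 rose, where 6.03% were higher, and Tdo2 fell, where 5.36% were lower. The median in males was 0.05. The share in females was thus near that of all genes, and the share in males was below it. Libraries on the 2 diets did not overlap in 2 enzyme genes that were higher and 5 that were lower in females, against 8.71% and 9.55% of all genes (18.3% together). In males they did not overlap in 1 gene that was higher and 2 that were lower, against 9.32% and 9.13% (18.5% together).

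The female count depended on single libraries: it was 2 without high fat diet replicate 1, normal diet replicate 2 or normal diet replicate 4, and 3 without normal diet replicate 1. It was 8 with DESeq2 and 3 without the filter on low counts. On a log2(TPM + 1) scale, where the median of all genes moved up by 0.15 in females, 5 enzyme genes were higher and 1 lower, against 2 higher and 3 lower on the count scale. In males that scale gave 2 higher and 1 lower, against 1 and 1. The male count was 1 with DESeq2-type size factors, when the mean of replicates 2 and 3 of the high fat diet males was used, or without any 1 of replicate 2, 3 or 4 of that group, replicate 2 or 4 of normal diet males, replicate 2 or 4 of normal diet females, and replicate 2 or 4 of high fat diet females. It was 7 without male high fat diet replicate 1, and 2, both lower, without replicates 2 and 3 together. The share of all genes called in each of these alternatives is not given here. The counts therefore cannot be read as changes of the enzyme genes alone.

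**Figure D1:**
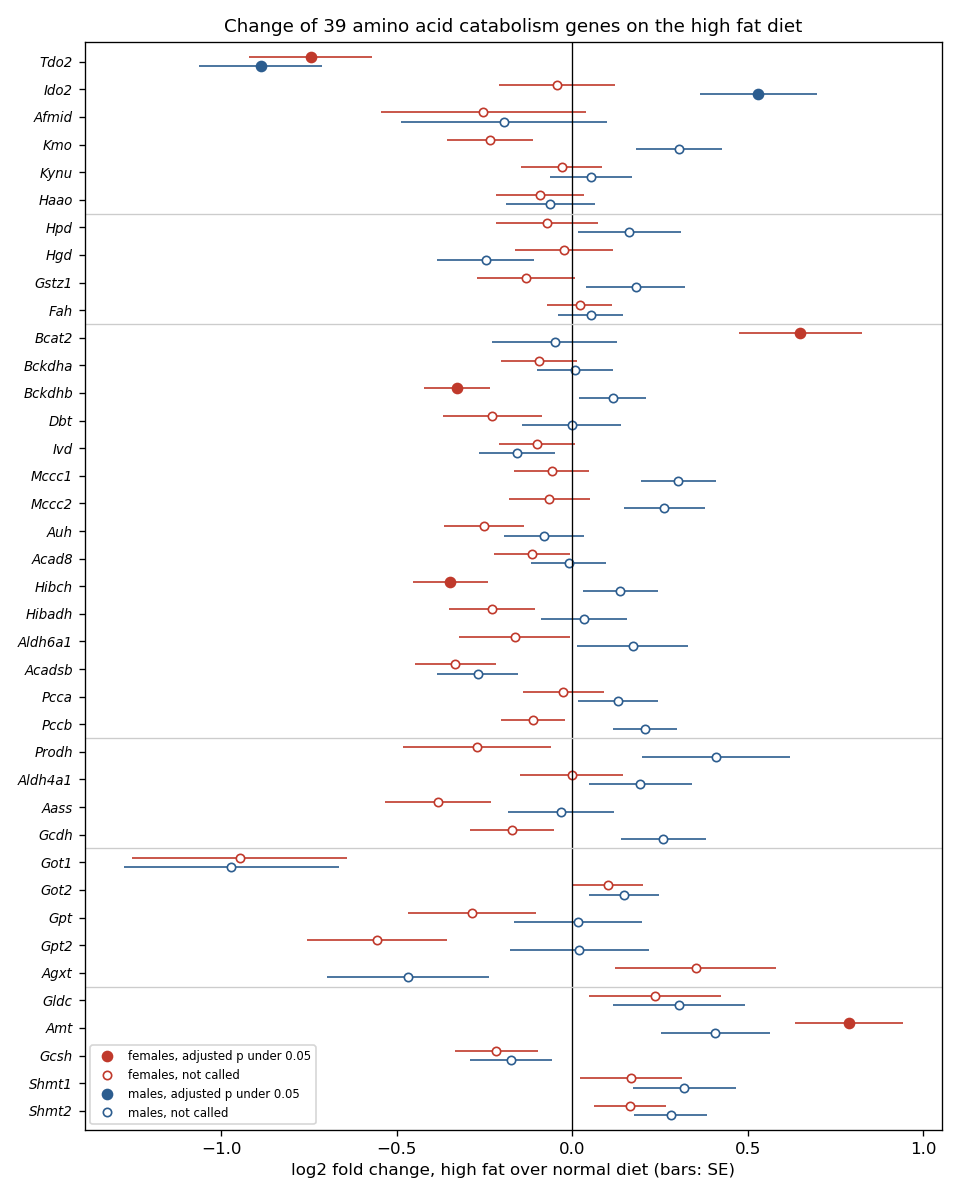
Log2 fold difference between high fat and normal diet (x axis) for each of the 39 enzyme genes (y axis, grouped by pathway) in females and in males, with bars of 1 SE and filled points for genes called at an adjusted p under 0.05. Tdo2 is filled in both sexes and lies at -0.74 in females and -0.89 in males.

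Markers of liver zones and of other cells also moved with diet. Of 6 periportal hepatocyte markers 3 fell in females (Cyp2f2, Cps1 and Pck1) and 2 in males (Cyp2f2 and Pck1). The others, Hal, Sds and Gls2, were not called, with log2 differences of 0.298, -0.961 and -0.01 in females and 0.245, -0.9995 and -0.412 in males. These 3 and the pericentral marker Oat are themselves amino acid genes from the related list described further on, so the zone markers are not independent of it. The summed level of the 6 was 7600 to 8510 CPM in normal diet females, 4060 to 5900 CPM in high fat diet females, 8060 to 10100 CPM in normal diet males and 5690 to 6510 CPM in high fat diet males. Of 7 pericentral markers 1 rose in females and 4 in males, with sums of 12600 to 14100 CPM in normal diet females, 8010 to 15100 CPM in high fat diet females, 8130 to 12900 CPM in normal diet males and 13200 to 15700 CPM in high fat diet males. Of 7 Kupffer cell and macrophage markers 3 rose in females and 1 in males, with sums of 263 to 382 CPM in normal diet and 436 to 634 CPM in high fat diet females, and 245 to 382 CPM in normal diet and 220 to 438 CPM in high fat diet males. Of 6 stellate cell markers 2 rose in females and 0 in males, and of 6 general hepatocyte markers 1, albumin (Alb), fell in males. The summed hepatocyte markers given above were lower on the high fat diet in both sexes, without overlap. Albumin weighs heavily in that sum, at 7.39% to 9.17% of counts in female libraries and 3.73% to 6.94% in male libraries. The 6 markers did not move together. Their log2 differences ran from -0.335 (Alb) to 0.06 (Apoa1) in females and from -0.503 (Alb) to 0.436 (Fgb) in males. In males 1 of 5 cholangiocyte markers, Krt19, fell and 1 of 2 adipocyte markers tested, Cfd, rose. None of the hepatocyte, periportal, pericentral, Kupffer or stellate cell markers was at 0 in all libraries of a group. Their part in the enzyme results was not tested, and in whole liver fewer cells of a type and less RNA per cell cannot be told apart.

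The promoters of Tdo2 and Amt are shown because these were the enzyme genes whose diet calls held under every alternative tried, and that of Tat, tyrosine transaminase, because it fell more than any of the 39. The windows are the 250 bases before the gene start from RefSeq on GRCm38.p6, an older build than the GRCm39 on which the counts were made. They cover chr3:81975729-81975978 on the minus strand for Tdo2, chr8:109990186-109990435 on the plus strand for Tat and chr9:108296655-108296904 on the plus strand for Amt. Capitals mark matches on either strand to the motifs searched: TATAAA (the TATA box), CCAAT (the CCAAT box), TGTTCT (a core of the glucocorticoid receptor element), TGACG (a core of the cAMP response element), CAAAGTCCA (a core of the HNF4 element), GTTAAT (a core of the HNF1 element) and TTNNGCAA (a core of the C/EBP element).
Tdo2: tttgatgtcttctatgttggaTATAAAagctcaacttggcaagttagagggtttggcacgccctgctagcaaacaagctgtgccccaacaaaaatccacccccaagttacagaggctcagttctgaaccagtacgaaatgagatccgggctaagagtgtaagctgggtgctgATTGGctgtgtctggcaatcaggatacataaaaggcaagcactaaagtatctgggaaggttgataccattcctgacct
Tat: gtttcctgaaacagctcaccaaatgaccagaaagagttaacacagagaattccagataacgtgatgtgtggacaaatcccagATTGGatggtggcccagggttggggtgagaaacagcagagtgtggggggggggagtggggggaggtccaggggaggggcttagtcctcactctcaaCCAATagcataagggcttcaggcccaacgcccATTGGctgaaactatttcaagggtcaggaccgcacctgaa
Amt: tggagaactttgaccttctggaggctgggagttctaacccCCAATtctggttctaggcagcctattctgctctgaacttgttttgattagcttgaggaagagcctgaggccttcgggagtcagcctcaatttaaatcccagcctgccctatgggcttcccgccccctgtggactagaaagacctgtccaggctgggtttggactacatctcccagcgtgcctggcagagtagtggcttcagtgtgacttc

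Tdo2 held 1 TATAAA and 1 CCAAT match, Tat held 3 CCAAT matches and Amt held 1. Of the 39 enzyme genes 35 had a window, and 19 of these (54.3%) held CCAAT, against 33.8% of all 32851 windows. TATAAA stood in 8.57% of the enzyme genes and 12.4% of all windows, TGTTCT in 11.4% and 16.1%, TGACG in 14.3% and 17.8%, GTTAAT in 8.57% and 6.43%, and TTNNGCAA in 11.4% and 9.56%. CAAAGTCCA stood in none of the enzyme genes' windows and in 0.384% of all windows. Some genes have more than 1 window, and the 35 enzyme genes had 40. An enzyme gene was counted if any of its windows matched, while the share of all windows counts each window. The shares are thus not counted alike, which can raise those of the enzyme genes. A match describes the letters only.

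Of the 6 tryptophan genes Tdo2 fell in both sexes and Ido2 rose in males. Tdo2, which opens the pathway (ENSMUSG00000028011.17), stood at 2454, 2482, 1970 and 2261 CPM in the normal diet female libraries and at 1113, 1384, 1298 and 1676 CPM in the high fat diet female libraries. In males it stood at 3256, 3868, 2541 and 3136 CPM on the normal diet and at 1297, 2072, 2120 and 1431 CPM on the high fat diet. In each sex every high fat diet library lay below every normal diet library. Tdo2 was 1.68-fold lower in females (log2 -0.74 ± 0.18, SE, n = 4 per group; edgeR adjusted p = 0.0114) and 1.85-fold lower in males (log2 -0.89 ± 0.18; edgeR adjusted p = 0.00351). The calls in both sexes held in all 25 alternatives, and the fall was not shown to differ between the sexes (difference 0.14 ± 0.25, edgeR adjusted p = 0.863).

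Ido2 stood at 35.5, 36.4, 42.6 and 37.6 CPM in normal diet males and at 39.3, 63.6, 62.05 and 54.5 CPM in high fat diet males. Replicate 1 on the high fat diet lay within the normal diet range and the other 3 lay above it. Ido2 rose 1.44-fold in males (log2 0.53 ± 0.17, edgeR adjusted p = 0.047), a call that was lost in 17 of 25 alternatives, in which adjusted p ranged from 0.00748 to 0.383, the highest being without high fat diet replicates 2 and 3. Single libraries whose removal ended the call were high fat diet male replicates 2, 3 and 4, all 4 normal diet males, normal diet female replicates 2, 3 and 4 and high fat diet female replicates 2 and 4. In females its difference was -0.04 ± 0.17 on the log2 scale (edgeR adjusted p = 0.898). The later enzymes of the pathway, Afmid, kynurenine formamidase, Kmo, kynurenine monooxygenase, Kynu, kynureninase, and Haao, hydroxyanthranilate dioxygenase, were not called for diet in either sex, with log2 differences of -0.25 to -0.03 in females and -0.19 to 0.30 in males. Without high fat diet male replicates 2 and 3 the Afmid difference in males was -0.91 and was called (edgeR adjusted p = 0.0443).

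The 4 tyrosine enzymes were not called for diet in either sex. Hpd, which makes homogentisate, stood at 2402, 2406, 1837 and 2039 CPM in normal diet females and 1866, 2123, 2016 and 2260 CPM in high fat diet females. It stood at 1489, 1645, 1223 and 1233 CPM in normal diet males and 1278, 1781, 1842 and 1355 CPM in high fat diet males. Diets overlapped in both sexes, with log2 differences of -0.07 ± 0.15 in females and 0.16 ± 0.15 in males. Hgd, Gstz1 and Fah lay between -0.13 and 0.02 in females and between -0.25 and 0.18 in males.

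**Figure D2:**
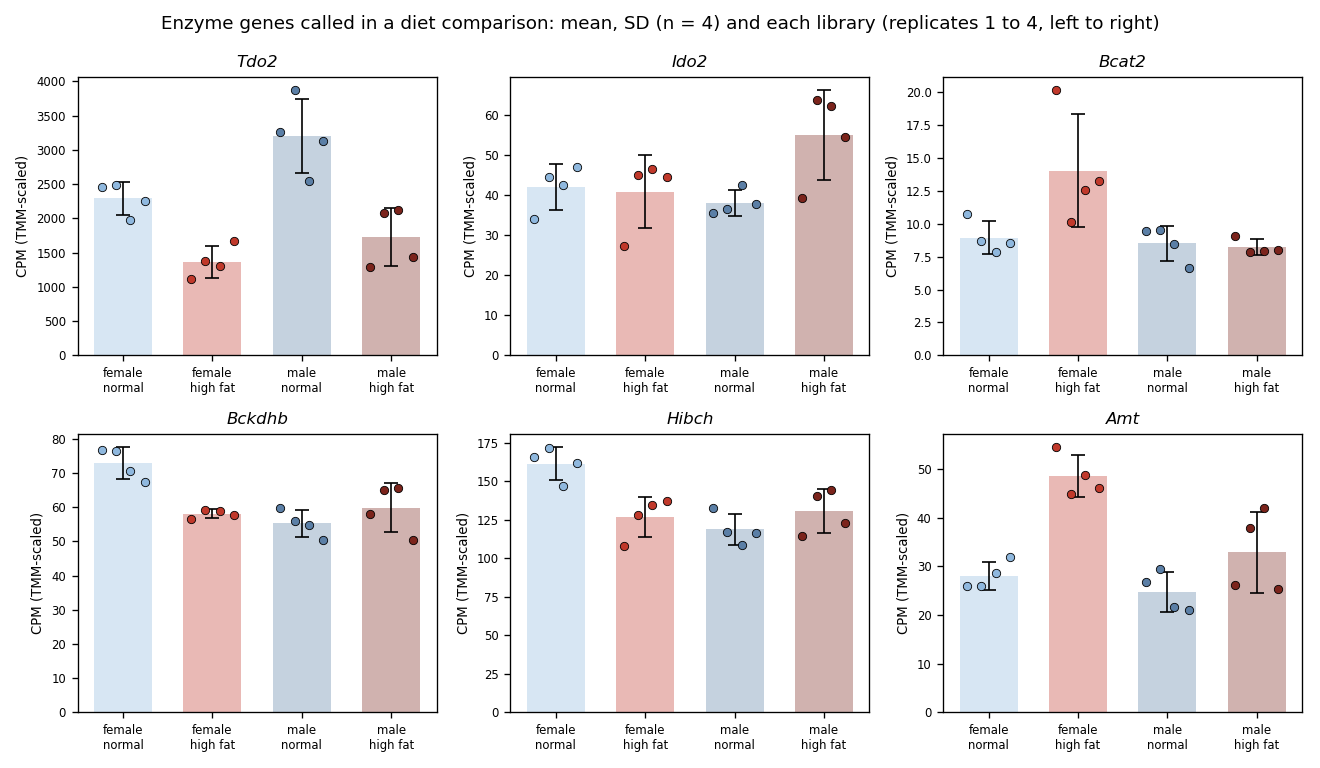
TMM-scaled CPM (y axis) of the 6 enzyme genes called in a diet comparison, by sex and diet (x axis), with bars for the mean, error bars for the SD (n = 4) and 1 point per library. Every high fat diet point for Tdo2 lies below every normal diet point of the same sex, and the highest Bcat2 point, at 20.1 CPM, is high fat diet female replicate 1.

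Of the 15 branched-chain enzyme genes 1 rose and 2 fell in females, and none was called in males. Bcat2 (ENSMUSG00000030826.20) stood at 10.7, 8.71, 7.83 and 8.51 CPM in normal diet females and at 20.1, 10.1, 12.6 and 13.2 CPM in high fat diet females. High fat diet replicate 1 was the highest of the 8, and replicate 2 lay within the normal diet range. Bcat2 rose 1.57-fold in females (log2 0.65 ± 0.18, edgeR adjusted p = 0.0236). The call was lost without that replicate (adjusted p = 0.0789), without normal diet replicate 2 (0.0559), 3 (0.0676) or 4 (0.0583) and with the female libraries fitted alone (0.0516), in a range of 0.0043 to 0.0789 over 25 alternatives. In males Bcat2 stood at 9.43, 9.56, 8.43 and 6.63 CPM on the normal diet and 9.10, 7.84, 7.94 and 7.97 CPM on the high fat diet (log2 -0.05 ± 0.18, edgeR adjusted p = 0.894). An exon of Bcat2 overlaps 0610005C13Rik on the other strand, which averaged 134 CPM in normal diet females, 125 CPM in high fat diet females, 145 CPM in normal diet males and 101 CPM in high fat diet males. Whether the counting used strand is not given in the sources used here, so reads of this pair may not be separable. In the older annotation used for this check 12 of the 39 genes had an exon overlapping another gene, 10 of them one on the other strand.

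Next in the pathway is the branched-chain ketoacid dehydrogenase complex. Its subunit gene Bckdhb stood at 76.8, 76.5, 70.7 and 67.4 CPM in normal diet females and at 56.4, 59.3, 58.8 and 57.7 CPM in high fat diet females, without overlap on this scale. Bckdhb fell by 0.33 ± 0.09 on the log2 scale in females (edgeR adjusted p = 0.0319), a call that was lost in 11 of 25 alternatives, where adjusted p ranged from 0.0113 to 0.496. On the log2(TPM + 1) scale the difference was -0.09 (limma adjusted p = 0.492) and the diets overlapped, at 67.5 to 76.1 TPM on the normal diet and 65.4 to 69.3 TPM on the high fat diet. It was lost without any 1 of high fat diet female replicates 1, 3 and 4, the 4 normal diet females or normal diet male replicate 2. The partner subunit Bckdha stood at 153, 158, 143 and 135 CPM in normal diet females and 155, 138, 129 and 127 CPM in high fat diet females. In males Bckdha stood at 156, 134, 134 and 124 CPM on the normal diet and 127, 150.4, 152 and 119.9 CPM on the high fat diet. The diets overlapped for Bckdha in both sexes, with log2 differences of -0.10 ± 0.11 and 0.01 ± 0.11. Dbt, the transacylase of the complex, was not called, with -0.23 ± 0.14 in females.

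Farther along, Hibch, the hydroxyisobutyryl-CoA hydrolase of valine breakdown, stood at 166, 172, 147 and 162 CPM in normal diet females and at 108, 128, 134 and 137 CPM in high fat diet females. The diets did not overlap on this scale, and Hibch fell by 0.35 ± 0.11 on the log2 scale (edgeR adjusted p = 0.042). That call was lost in 14 of 25 alternatives, with adjusted p from 0.0154 to 0.449. On the log2(TPM + 1) scale the difference was -0.11 (limma adjusted p = 0.446) and the diets overlapped, at 115.5 to 119.9 TPM on the normal diet and 93.1 to 124 TPM on the high fat diet. It was lost without any 1 of the 4 high fat diet females, normal diet female replicates 1, 2 and 4, high fat diet male replicate 4 or normal diet male replicates 2 and 4. The other 11 genes, which are Ivd, Mccc1, Mccc2 and Auh of leucine breakdown, Acad8, Hibadh and Aldh6a1 of valine breakdown, Acadsb of isoleucine breakdown, the propionyl-CoA carboxylase subunits Pcca and Pccb, and Dbt, were not called for diet. They lay between -0.33 and -0.03 on the log2 scale in females and between -0.27 and 0.30 in males. Some were called in alternatives. Acadsb was lower in females with DESeq2 (-0.33, adjusted p = 0.0337) and with a replicate block (edgeR adjusted p = 0.0476), and its diets did not overlap in males. In males Pccb was higher on the log2(TPM + 1) scale (limma adjusted p = 0.024). Mccc1 and Mccc2 were higher in males without high fat diet male replicate 1 (edgeR adjusted p = 0.0208 and 0.039).

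None of the 4 proline and lysine genes passed for diet. Prodh, proline dehydrogenase, differed by -0.27 ± 0.21 in females and 0.41 ± 0.21 in males on the log2 scale. Aldh4a1, which completes proline breakdown, differed by -0.00 ± 0.15 and 0.19 ± 0.15. The lysine enzymes Aass and Gcdh, glutaryl-CoA dehydrogenase, did not overlap between diets in females, with -0.38 ± 0.15 and -0.17 ± 0.12.

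Among the 5 transaminases none was called for diet. Got1, the cytosolic aspartate transaminase, had the largest difference of the 39 genes in each sex, -0.95 ± 0.31 in females (edgeR adjusted p = 0.0577) and -0.97 ± 0.31 in males (edgeR adjusted p = 0.053) on the log2 scale. Its normal diet libraries spread widely, at 389.9, 399, 169 and 290.4 CPM in females and 274, 492, 202 and 316 CPM in males, and overlapped the high fat diet libraries in both sexes. DESeq2 called Got1 in both sexes (adjusted p = 0.0105 in females and 0.00716 in males). The edgeR test called it in females without normal diet female replicate 3, high fat diet male replicate 4 or normal diet male replicate 2 or 3 and with the female libraries fitted alone, and in males without normal diet female replicate 3, high fat diet male replicate 1 or normal diet male replicate 3. Gpt, the cytosolic alanine transaminase, stood at 229.6, 230.1, 176 and 169 CPM in normal diet females and 142, 153, 158 and 207 CPM in high fat diet females. In males it stood at 156, 161, 143 and 130.3 CPM on the normal diet and 110.5, 189.6, 187 and 109.8 CPM on the high fat diet, the latter in a higher pair and a lower pair. Gpt2, the mitochondrial alanine transaminase, differed by -0.56 ± 0.20 in females and 0.02 ± 0.20 in males on the log2 scale, and in females it was called by DESeq2 (adjusted p = 0.0453), with the female libraries fitted alone (0.0407), without high fat diet female replicate 4 (0.029) and without high fat diet male replicates 2 and 3 (0.0285). Got2, the mitochondrial aspartate transaminase, differed by 0.10 ± 0.10 in females and 0.15 ± 0.10 in males, and limma called it higher in females on the log2(TPM + 1) scale (0.34, adjusted p = 0.0189). Agxt differed by 0.35 ± 0.23 in females and -0.47 ± 0.23 in males.

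In the glycine cleavage system 1 of its 3 genes shown here, Amt, rose in females. Amt (ENSMUSG00000032607.13) stood at 25.9, 25.9, 28.6 and 31.9 CPM in normal diet females and at 54.4, 44.9, 48.7 and 46.03 CPM in high fat diet females. Every high fat diet library lay above every normal diet library. Amt rose 1.73-fold (log2 0.79 ± 0.15, edgeR adjusted p = 0.00356), and the call held in all 25 alternatives. In males it stood at 26.9, 29.5, 21.7 and 21.03 CPM on the normal diet and 26.1, 37.9, 42.02 and 25.4 CPM on the high fat diet, where replicates 2 and 3 lay above all normal diet libraries and replicates 1 and 4 within their range (log2 0.41 ± 0.15, edgeR adjusted p = 0.0946).

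Gldc, the glycine decarboxylase that opens the reaction, stood at 89.5, 96.8, 71.1 and 83.1 CPM in normal diet females and 106, 91.8, 102 and 100.5 CPM in high fat diet females. In males it stood at 88.3, 113, 100.2 and 79.9 CPM on the normal diet and 77.03, 154, 152 and 88.01 CPM on the high fat diet, with replicates 2 and 3 above every other library of the study. It was not called in either sex (log2 0.24 ± 0.19 and 0.30 ± 0.19). Gcsh, the lipoyl carrier protein, and the serine hydroxymethyltransferases Shmt1 of the cytosol and Shmt2 of mitochondria were not called for diet either, with -0.22 ± 0.12, 0.17 ± 0.15 and 0.16 ± 0.10 in females and -0.17 ± 0.12, 0.32 ± 0.15 and 0.28 ± 0.10 in males. On the log2(TPM + 1) scale limma called Shmt1 (0.40, adjusted p = 0.0451) and Shmt2 (0.40, adjusted p = 0.0115) higher in females and Shmt2 higher in males (0.35, adjusted p = 0.0347). In edgeR Shmt1 was called in males without high fat diet male replicate 1 (adjusted p = 0.0492) and Shmt2 without normal diet male replicate 1 (adjusted p = 0.0447).

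No enzyme gene passed the test of whether the diet difference itself differed between the sexes, where 0.677% of all genes did, 0.264% higher and 0.413% lower in females. At an unadjusted p under 0.05 there were 10 enzyme genes, and DESeq2 called 0. The diet difference was lower in females than in males for 32 of 39 genes, with a median of -0.16 on the log2 scale, and the highest single value was 0.82 ± 0.33 for Agxt. The median was 0.03 on the log2(TPM + 1) scale and 0.02 without male high fat diet replicates 2 and 3, so its sign is not stable. The diet comparisons in the 2 sexes share no libraries, and 18 of 39 genes had the same sign in both.

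On the normal diet 10 of the 39 enzyme genes were higher in females and 0 were lower, where 15.7% of all genes passed, 7.03% higher and 8.68% lower. The 10 were Haao of the tryptophan pathway, Hpd and Gstz1 of the tyrosine pathway, Bckdhb, Mccc1, Mccc2 and Hibch of the branched-chain pathways, Gcdh, Gcsh and Shmt1. Libraries of the sexes did not overlap in 12 genes that were higher and 2 that were lower in females, against 9.86% and 12.2% of all genes (22% together). The median difference of the 39 genes was 0.20 on the log2 scale. The count was 16 with DESeq2 (14 higher, 2 lower) and 16 with only the normal diet libraries fitted. It was 6 without normal diet female replicate 1 or without normal diet male replicate 3 or 4, and 5 without normal diet female replicate 2. The 2 lower with DESeq2 were Tdo2 (log2 -0.48, adjusted p = 0.042) and Kynu (log2 -0.34, adjusted p = 0.0299). In edgeR Tdo2 was called lower with only the normal diet libraries fitted (adjusted p = 0.027). Kynu was called lower there with a replicate block (edgeR adjusted p = 0.0442). Tdo2 did not overlap, at 1970 to 2482 CPM in females and 2541 to 3868 CPM in males. Summed over 6 stellate cell markers, levels were 320 to 331 CPM in normal diet females and 217 to 260 CPM in normal diet males. Endothelial markers summed to 139 to 162 CPM in females and 121 to 137 CPM in males, and T and B cell markers to 2.43 to 3.99 CPM and 0.541 to 2.18 CPM. The hepatocyte sums given above, in which albumin weighs heavily, were also higher in females without overlap. The part of these markers in the sex differences was not tested. This comparison shares the normal diet female libraries with the diet comparison in females.

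Shmt1 stood at 233, 250.3, 214 and 223 CPM in normal diet females and at 163, 120.1, 149.8 and 153 CPM in normal diet males, and was 1.57-fold higher in females (log2 0.65 ± 0.15, edgeR adjusted p = 0.00629). Hpd, with the values given above, was 1.55-fold higher (log2 0.64 ± 0.15, edgeR adjusted p = 0.00726). Every female library lay above every male library for both genes. Gcsh stood at 202, 166, 152 and 159 CPM in females and 145, 106, 109 and 114 CPM in males, again without overlap (log2 0.52 ± 0.12, edgeR adjusted p = 0.0069).

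Bckdhb stood at 59.8, 55.99, 54.7 and 50.4 CPM and Hibch at 133, 117, 109 and 116 CPM in normal diet males, all below the normal diet female libraries given above. They were higher in females by 0.40 ± 0.09 (edgeR adjusted p = 0.00839) and 0.44 ± 0.11 (edgeR adjusted p = 0.00932) on the log2 scale. Both are genes called lower on the high fat diet in females, calls that were lost in 11 and 14 of 25 alternatives. On that diet the sexes overlapped, with -0.04 ± 0.09 and -0.04 ± 0.11. Neither gene passed the test of whether the diet difference differed between the sexes, so a change of the sex difference with diet was not shown. Mccc1, a methylcrotonyl-CoA carboxylase subunit, stood at 58.2, 61.01, 61.6 and 55.4 CPM in females and 46.04, 44.3, 46.1 and 43.7 CPM in males (log2 0.39 ± 0.11, edgeR adjusted p = 0.0194), a call lost without normal diet female replicate 2 (0.0552). The remaining 4 calls, on Mccc2, Gstz1, Gcdh and Haao, had log2 differences of 0.38, 0.46, 0.39 and 0.42, and each was lost without either normal diet male replicate 3 or replicate 4, and without normal diet female replicate 1 or 2. Gstz1, Gcdh and Haao were also lost without normal diet male replicate 2, Mccc2 without normal diet female replicate 3 and Gcdh without the filter on low counts. The highest adjusted p of these 4 genes over the alternatives was 0.114 for Mccc2, 0.105 for Gstz1, 0.0961 for Gcdh and 0.105 for Haao.

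**Figure D3:**
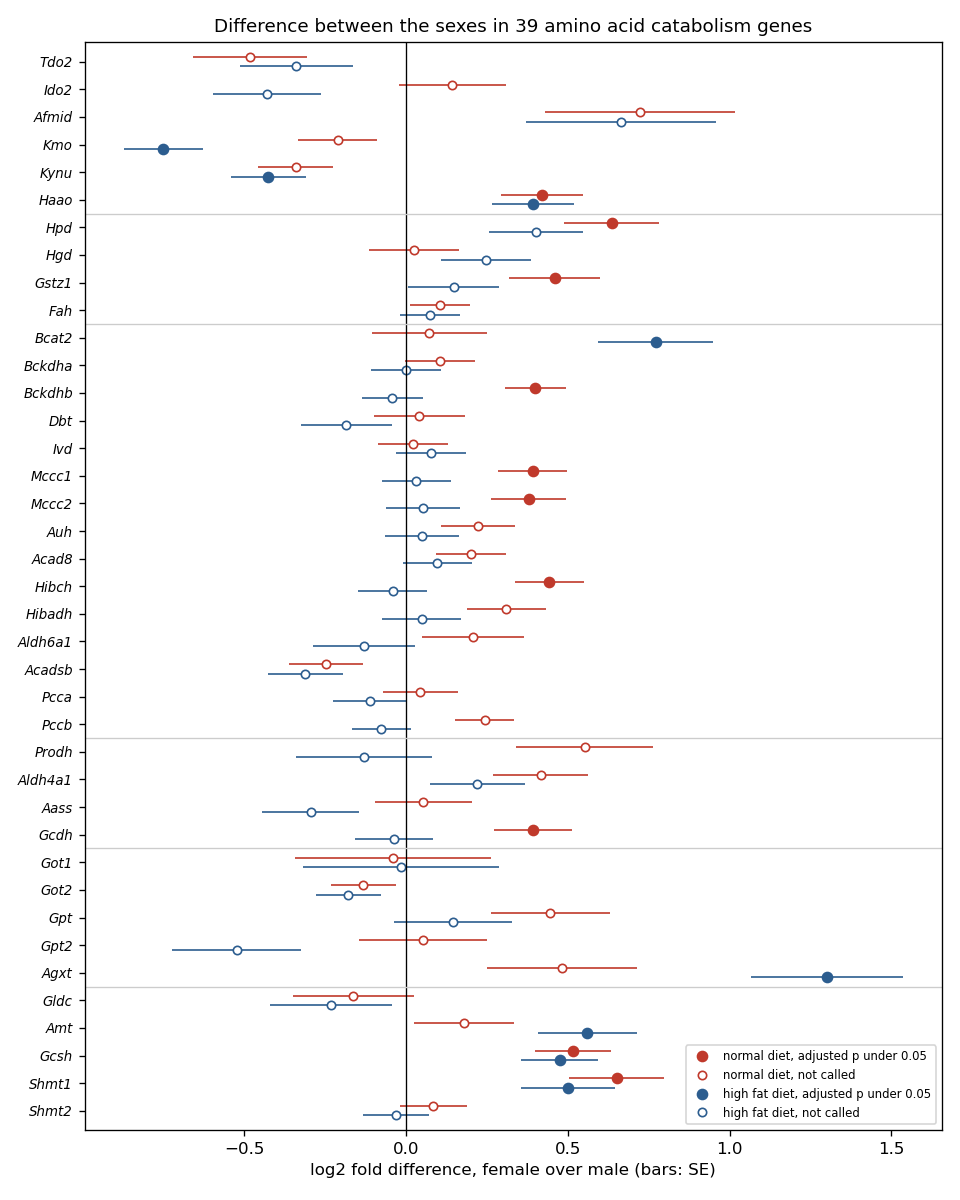
Log2 fold difference of females over males (x axis) for each of the 39 enzyme genes (y axis, grouped by pathway) on each diet, with bars of 1 SE and filled points for genes called at an adjusted p under 0.05. All 10 filled points of the normal diet lie to the right of 0, and Kmo and Kynu are the filled points to the left of 0 on the high fat diet.

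On the high fat diet 8 of the 39 enzyme genes differed between the sexes, 6 higher and 2 lower in females, where 20.4% of all genes did, 8.84% higher and 11.6% lower. Haao, Gcsh and Shmt1 were called on both diets. Hpd was not called on this diet, though its libraries did not overlap, at 1866 to 2260 CPM in females and 1278 to 1842 CPM in males. Some alternatives called it higher in females, among them DESeq2 (log2 0.42, adjusted p = 0.023) and the log2(TPM + 1) scale (0.59, limma adjusted p = 0.00588). Bcat2, Agxt and Amt were higher in females, and Kmo and Kynu were lower. The libraries of the sexes did not overlap in 6 genes that were higher and 3 that were lower in females, against 10.3% and 12.4% of all genes (22.7% together), and the median difference of the 39 genes was 0.00. The count was 5 without male high fat diet replicate 4. The summed hepatocyte markers given above, in which albumin weighs heavily, were higher in females without overlap. So were T and B cell markers, at 3.59 to 7.38 CPM against 1.49 to 3.26 CPM. Kupffer cell markers, at 436 to 634 CPM in females and 220 to 438 CPM in males, overlapped narrowly. The part of these markers was not tested. This comparison shares the high fat diet libraries with the diet comparisons. On the log2(TPM + 1) scale, where the median of all genes moved up by 0.10, 10 were higher and 1 was lower, and the counts were also 10 and 1 without male high fat diet replicates 2 and 3.

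Kmo (ENSMUSG00000039783.16), which hydroxylates kynurenine, stood at 264, 333, 373 and 369.8 CPM in high fat diet females and at 629.5, 498, 518 and 607 CPM in high fat diet males. Every female library lay below every male library, and Kmo was 1.68-fold lower in females (log2 -0.75 ± 0.12, edgeR adjusted p = 0.000535). On the normal diet its mean was also lower in females, 394 against 456 CPM, but the sexes overlapped and it was not called. The change of the Kmo sex difference with diet did not pass in edgeR. Kynu, which splits kynurenine and its hydroxylated form, stood at 119, 132, 141 and 120.1 CPM in females and 178, 172, 173 and 164 CPM in males, also without overlap (log2 -0.43 ± 0.12, edgeR adjusted p = 0.0159). The Kmo call held in all 25 alternatives, while the Kynu call was lost on the log2(TPM + 1) scale (adjusted p = 0.147) and without male high fat diet replicates 2 and 3 (0.0581).

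Agxt (ENSMUSG00000026272.7), which turns glyoxylate into glycine, stood at 291, 188, 177 and 219 CPM in high fat diet females and at 90.04, 93.7, 92.5 and 78.7 CPM in high fat diet males. The sexes did not overlap, and Agxt was 2.46-fold higher in females (log2 1.30 ± 0.23, edgeR adjusted p = 0.00137), the largest sex difference among the 39 genes on either diet. On the normal diet Agxt stood at 221, 186, 133 and 146 CPM in females and 123, 192, 91.1 and 84.3 CPM in males, which overlapped (log2 0.48 ± 0.23, edgeR adjusted p = 0.167). Without normal diet male replicate 2 that difference was 0.79 and was called (edgeR adjusted p = 0.0149). The change of this sex difference with diet did not pass (edgeR adjusted p = 0.296).

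For Bcat2 every high fat diet female library lay above every high fat diet male library, 1.71-fold higher (log2 0.77 ± 0.18, edgeR adjusted p = 0.00591). Amt did not overlap either and was 1.48-fold higher (log2 0.56 ± 0.15, edgeR adjusted p = 0.0161), a call lost without male high fat diet replicate 4 (0.061). Gcsh stood at 158, 139, 152 and 136 CPM in females and 94.5, 111, 113 and 102 CPM in males, without overlap (log2 0.47 ± 0.12, edgeR adjusted p = 0.0095). Shmt1 (log2 0.50 ± 0.15) and Haao (log2 0.39 ± 0.13) were also higher in females. The calls on both were lost without high fat diet female replicate 4 or male replicate 4, that on Haao also without female or male replicate 1, and that on Shmt1 also with only the high fat diet libraries fitted, with a highest adjusted p over the alternatives of 0.0766 for Shmt1 and 0.108 for Haao.

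**Figure D4:**
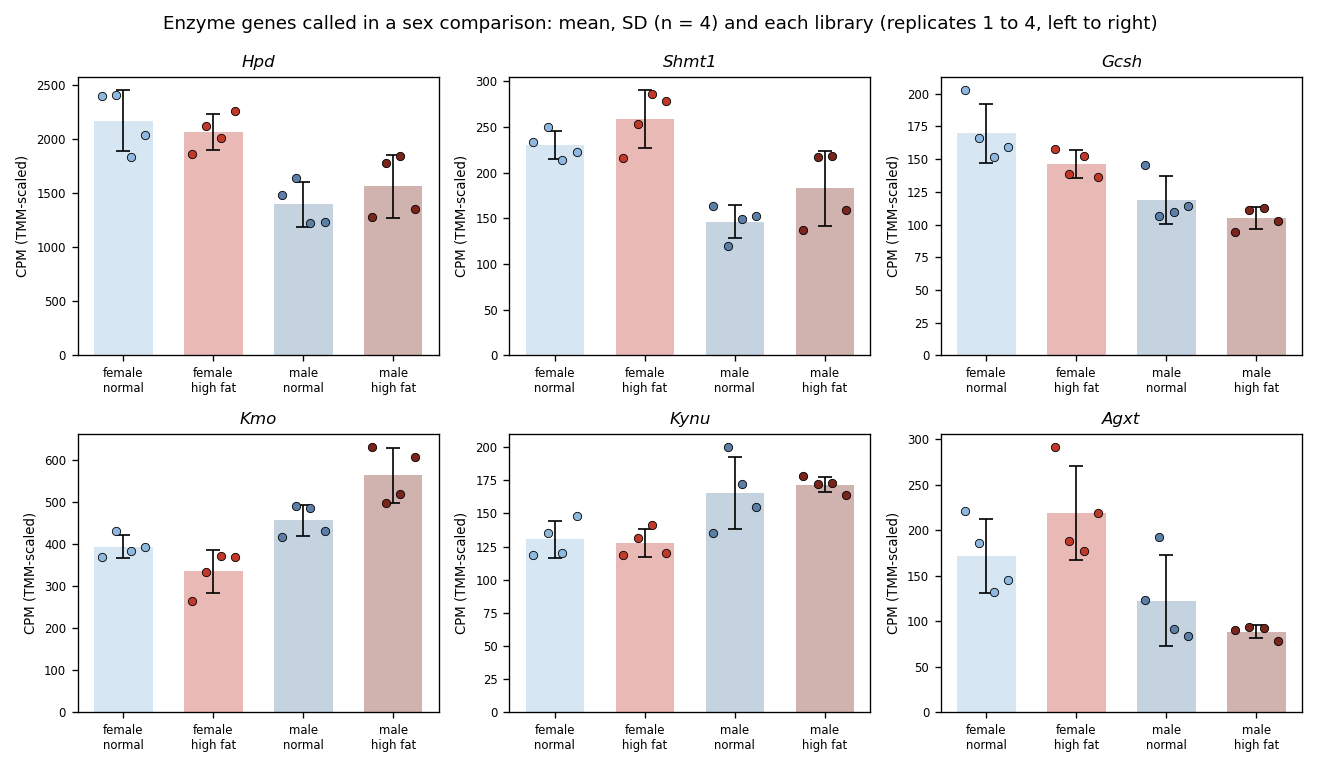
TMM-scaled CPM (y axis) of 6 enzyme genes called in a sex comparison, by sex and diet (x axis), with bars for the mean, error bars for the SD (n = 4) and 1 point per library. On the high fat diet every female point for Kmo and Kynu lies below every male point, and every female point for Agxt lies above every male point.

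A list of 60 other amino acid genes was examined beside the 39, covering related enzymes, transporters and regulators, of which 57 were tested. In females 12 passed for diet (21.1%, against 11.5% of all genes), 4 higher and 8 lower, with a median of -0.13 on the log2 scale against 0.00 for all genes. In males 8 passed (14%, against 11.4%), 1 higher and 7 lower, with a median of -0.08. On the log2(TPM + 1) scale the split was 6 higher and 4 lower in females and 2 higher and 6 lower in males. For the difference of the diet effect between the sexes edgeR called 0, with 10 at an unadjusted p under 0.05, and DESeq2 called 3 (Cebpa, Cebpb and Hsd17b10, named after their values were seen).

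Tat, tyrosine transaminase, which feeds Hpd, stood at 2150, 2630, 1855 and 1964 CPM in normal diet females and 467, 528, 774 and 675 CPM in high fat diet females. In males it stood at 2571, 2578, 1591 and 1794 CPM on the normal diet and 804, 839, 878 and 677 CPM on the high fat diet. Neither sex overlapped between diets, and Tat fell by 1.81 ± 0.19 in females (edgeR adjusted p = 1.63e-05) and by 1.42 ± 0.19 in males (edgeR adjusted p = 0.000125) on the log2 scale. Hpd itself, the next enzyme, was not called.

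Kyat3, a kynurenine transaminase, stood at 270.2, 186, 189 and 261 CPM in normal diet males and 143, 105, 112 and 131 CPM in high fat diet males, without overlap, and fell by 0.88 ± 0.14 in males (edgeR adjusted p = 0.000834) and by 0.49 ± 0.14 in females (edgeR adjusted p = 0.0336). Klf15, a transcription factor known for controlling amino acid breakdown, stood at 124, 144, 115 and 121 CPM in normal diet females and 67.8, 73.8, 87.6 and 91.8 CPM in high fat diet females. It fell by 0.65 ± 0.16 in females (edgeR adjusted p = 0.0152) and by 0.90 ± 0.16 in males (edgeR adjusted p = 0.00173). The female call was lost on the log2(TPM + 1) scale (0.063) and without normal diet female replicate 2 (0.06). The amino acid transporter gene Slc38a2 fell by 1.06 ± 0.18 in females (edgeR adjusted p = 0.00107) and by 0.80 ± 0.18 in males (edgeR adjusted p = 0.00722), the latter lost without male high fat diet replicates 2 and 3 (0.07).

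In females the transporter gene Slc7a8 rose by 1.18 ± 0.20 (edgeR adjusted p = 0.00134) from a low level, 2.33, 1.99, 2.74 and 2.89 CPM on the normal diet. Cebpb, a transcription factor of liver metabolism, stood at 21.8, 35.4, 25.8 and 29.9 CPM in normal diet females and 10.9, 17.99, 12.98 and 8.91 CPM in high fat diet females and fell by 1.15 ± 0.21 (edgeR adjusted p = 0.00218). Its diet difference was not shown to differ between the sexes in edgeR with all libraries (adjusted p = 0.0599), while DESeq2 called it. The edgeR test also called it without high fat diet female replicate 2 (adjusted p = 0.015), normal diet female replicate 1 (0.047) or normal diet male replicate 1 (0.0341). Bckdk, the kinase that inactivates the branched-chain ketoacid dehydrogenase, rose by 0.54 ± 0.15 in males (edgeR adjusted p = 0.0308), a call lost in 8 of 25 alternatives, with adjusted p from 0.00678 to 0.102, among them those without high fat diet male replicate 1 or 3 or normal diet male replicate 2, 3 or 4. Ppm1k, the phosphatase that reactivates that complex, and Sds, serine dehydratase, were not called, with 0.50 ± 0.19 and -0.9995 ± 0.35 in males. Ppm1k was called higher in males in 3 of 25 alternatives. Sds differed by -0.96 ± 0.35 in females and was called lower there in 2 of 25 alternatives. In females Bckdk was not called either, but was called higher in 2 of 25 alternatives.

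**Figure D5:**
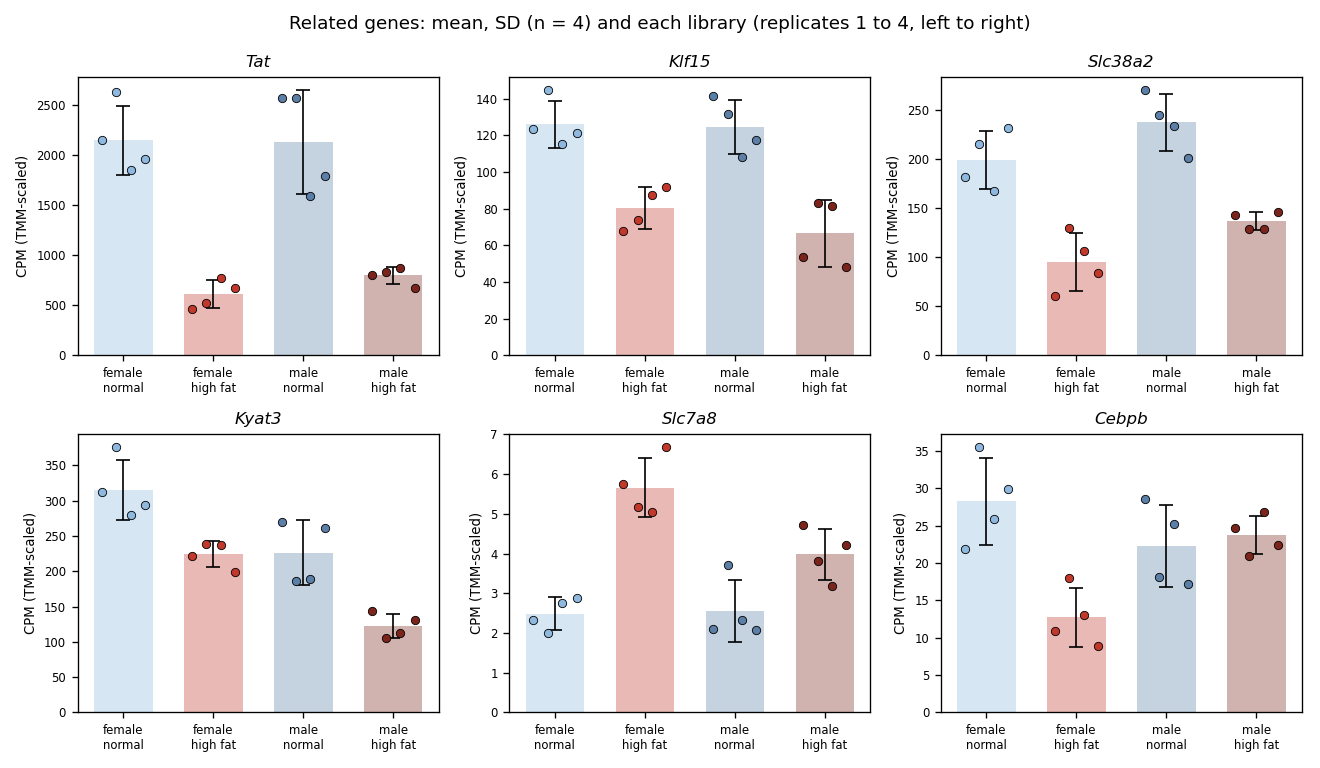
TMM-scaled CPM (y axis) of 6 related amino acid genes by sex and diet (x axis), with bars for the mean, error bars for the SD (n = 4) and 1 point per library. Every high fat diet point for Tat, Klf15, Slc38a2 and Kyat3 lies below every normal diet point of the same sex.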

How the data were processed

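Liver RNA of 16 samples was sequenced from poly(A) RNA with the NEBNext Ultra kit on a NovaSeq, per the labels. The expected counts and TPM per gene were made and deposited by the authors, with STAR and RSEM on GRCm39 per the submitters' processing notes; versions, annotation and strand setting are not given in the sources used here. All libraries carry the same batch number. Expected counts (4.89% of entries not whole) were rounded to whole numbers. The 39 enzyme genes and the lists of related genes and markers were chosen with earlier results of these data known. All 39 matched by symbol and gene identifier.

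Genes were filtered with filterByExpr, scaled by TMM and fitted over all 4 groups in edgeR 4.0.16 (R 4.3.3) with robust quasi-likelihood tests, two-sided, and Benjamini-Hochberg adjustment over 14781 genes at 0.05. Each SE was taken as |log2 fold change| / sqrt(F). CPM are TMM-scaled. All 39 genes are named; values per library are given for up to 6 called genes with the smallest adjusted p per comparison and for the entry enzymes Tdo2, Hpd, Bcat2, Bckdha, Gldc and Gpt (Got1 was added after its values were seen). Related genes are named for up to 4 largest changes per diet comparison, plus Tat, Sds, Bckdk, Ppm1k and Klf15; 1 more gene of that rule is not reported here. Alternatives were DESeq2 1.42.0, other size factors, no filter, limma 3.58.1 on log2(TPM + 1) and log2(TPM + 0.1), only the groups compared, a replicate block and leaving out each library. On simulated counts for the diet comparison in females (14550 genes), 22.2% of genes changed 1.5-fold and 60.6% of genes changed 2-fold were recovered, with 4.65% false calls. Exon overlaps came from an older annotation (GENCODE on GRCm38), used without coordinates. RefSeq promoter windows matched 35 of the 39 genes.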

Additional observations from a re-analysis of the deposited data

Results flagged for a closer look

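Of 192 groups of 4 libraries examined, 7 held 1 library far from the other 3, where chance gives about 1 in 20 groups. Among the enzyme genes this was 5 of 156 groups. In high fat diet females replicate 1 was low for Ido2 (27.2 CPM, the others 44.5 to 46.4 CPM), Aldh6a1 (471 CPM, the others 700.8 to 736.7 CPM) and Aass (238 CPM, the others 329.6 to 344 CPM). Bcat2 was high in male high fat diet replicate 1 (9.10 CPM, the others 7.84 to 7.97 CPM). Shmt2 was high in normal diet male replicate 1 (132 CPM, the others 104 to 109 CPM). Among the related genes normal diet male replicate 2 was high for Ppm1k (133 CPM, the others 93.9 to 100.3 CPM) and Slc7a8 (3.71 CPM, the others 2.08 to 2.33 CPM).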

How the results depend on the processing

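Of 35 gene results with a call, 19 kept direction and call in every alternative run (at most 25), 16 lost the call in at least 1 and 0 reversed. The number of enzyme genes called for diet in females was 5, and was 8 with DESeq2, 3 without the low count filter and 2 to 6 with 1 library left out. For diet in males it was 2, and was 1 with DESeq2-type size factors, 1 with the mean of replicates 2 and 3 of high fat diet males and 1 to 7 with 1 library left out. For sex on the normal diet it was 10, and was 16 with DESeq2, 16 with only the groups compared and 5 to 14 with 1 library left out. For sex on the high fat diet it was 8, and was 5 to 10 with 1 library left out. For the difference of the diet effect between sexes it was 0 in each alternative run; fitting only the groups compared was not an alternative there, since all 4 groups are compared. Of the related genes 0 were called for that difference, and 3 were with DESeq2 and 0 to 1 with 1 library left out. For diet the related genes called were 9 to 16 in females and 7 to 11 in males with 1 library left out. The cause of these changes was not tested. Shares of all genes called in each alternative are not given here, so a change in calling over all genes cannot be told apart. Leaving out male high fat diet replicates 2 and 3 together was chosen after seeing the data. Pairing by replicate number was examined through the correlation r of deviations from the group means. Over 24 pairs with the same number r ranged from -0.159 to 0.18, and 4 were over 0.1. All 4 were pairs of replicate 1, of which another pair stood at -0.128. Pairs with different numbers ranged from -0.272 to 0.187, and 5 of 16 libraries correlated best with their own number. Pairing or shared handling was thus not shown, and these correlations cannot exclude it. With a replicate block the enzyme genes called were 6 for diet in females, 2 for diet in males, 0 for the difference between them, 11 for sex on the normal diet and 10 for sex on the high fat diet; the related genes called were 14, 9 and 0. In the simulation for females most genes changed 1.5-fold were missed, so differences of that size can go uncalled. It changed 100 genes per fold, drawn from genes of every level, where 1700 genes were called in the data. The enzyme genes were more abundant than most genes, and recovery among them was not simulated.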
